A study of Mus musculus with 2744 samples.

Results

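Day 6 eGFP++ cells are the cells that the study sorted as eGFP++ at the last day of an in vitro differentiation of mouse embryonic stem cells (mESCs) into motor neurons, and here they are set against Day 6 cells whose labels carry no eGFP tag. The eGFP++ group held 94, 94 and 95 cells on 3 plates of the main experiment, of 96 sorted wells each, and 39 cells of 40 wells on 1 plate of the pilot experiment. The untagged Day 6 group held 88, 89, 90 and 87 cells on 4 main plates of 96 wells and 39 and 32 cells on 2 pilot plates of 40 wells. A well counted as a cell when at least 500 genes had a read, which kept 2448 of 2744 wells on the 35 plates of the whole series. Both groups came from embryoid bodies grown from mESCs, taken apart with papain and sorted as single cells into wells, and no other treatment separates them in the labels. Polyadenylated RNA was read by a modified CEL-seq protocol, in which a barcoded primer marks each cell and in vitro transcription amplifies the pooled cDNA. The labels name neither the promoter that drives eGFP nor the gate of the untagged cells, and they give no strain or clone.

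Motor neurons of the spinal cord arise from ventral progenitors that divide and carry Sox2, Hes5 and the bHLH factor Olig2. Neurog2 then drives exit from the cell cycle, and the newborn neurons turn on the homeodomain factors Mnx1, Isl1, Isl2 and Lhx3. Isl1 and Lhx3 act in a common protein complex that activates genes for the use of acetylcholine, the transmitter of motor neurons, while the cells extend axons filled with growth cone proteins, tubulins and neurofilaments.

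Depth and RNA yield were not even over the plates. Summed gene reads were 13982189 to 19963848 per eGFP++ plate and 12421431 to 36921608 per untagged plate, and cells had a plate median of 1742 to 3389 detected genes in eGFP++ and 2080 to 3805 in untagged plates. Spike-in RNA took 8.97% to 18.4% of reads on eGFP++ plates and 13.9% to 16.9% on untagged plates, and 1.04% to 2.50% of eGFP++ wells and 2.50% to 20% of untagged wells fell below the gene minimum. eGFP++ main plate 1 stood apart from the other eGFP++ plates, with the fewest genes per cell (1742) and the largest share of spike-in reads (18.4%). In the reads of the reporter itself, the label held for the 4 eGFP++ plates: Egfp was at 12362, 9163, 8532 and 4739 CPM (counts of a gene scaled to a common total of gene reads, with TMM factors between plates) on main plates 1 to 3 and pilot plate 1, against a lowest, median and highest of 1972, 3015 and 5402 CPM on untagged plates. Only the pilot eGFP++ plate lay inside the untagged range. Egfp is what the sort selected, so this is no finding. On the single Day 6 eGFP+ plate, which is outside the comparison, Egfp was at 1864 CPM, below each untagged plate. Plates of 1 experiment may share a culture, so the adjusted p-values below measure the spread between plates.

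Genes of motor neurons and axons were among those higher in sorted eGFP++ cells, and genes of progenitors and of the cell cycle were among those lower, relative to untagged Day 6 cells. Over 13419 genes tested on plate sums, with the experiment as a block, 65 genes passed at an adjusted p under 0.05 (edgeR quasi-likelihood test), which is 0.484% of those tested. Of these, 22 genes rose in eGFP++ (0.164%) and 43 fell (0.32%). The rises had log2 changes of 1.24 to 2.72 with a median of 1.56. The falls had log2 changes of -10.5 to -1.30 with a median of -3.78, beside a median of -0.12 over all genes tested. Of the 43 falls, 8 had under 3 reads in at least 1 eGFP++ experiment sum. The size of their change is therefore imprecise, and the sizes of rises and falls are not compared. Each of the 65 had the same direction in both experiments, as did 54.4% of all tested genes. For 58 of them no eGFP++ plate overlapped any untagged plate, as for 4.69% of all tested genes. Direction and overlap were taken from the same plates as the calls, so they are no independent support for them. In summed cells, a larger share of cells of 1 kind and more RNA per cell cannot be told apart.

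The number of calls rested on single plates. It was 18 without eGFP++ main plate 1 (6 higher and 12 lower), 36 without main plate 2 and 11 without main plate 3, and it was 10, 31 and 22 without untagged main plate 1, 2 or 3. When the reads were summed by experiment, so that n = 2 sums per group, 21 genes passed, among them 1 of the 22 rises (Arhgap36) and 14 of the 43 falls. Sfrp2, Cdca7, Ccnd2 and Fbxo5 passed under each of the 19 alternatives, and no called gene changed direction in 1233 refits of single genes under them. For the named genes with a call, leaving out 1 plate kept the call in 47.1% of refits and ended it in 52.9%.

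**Figure D1:**
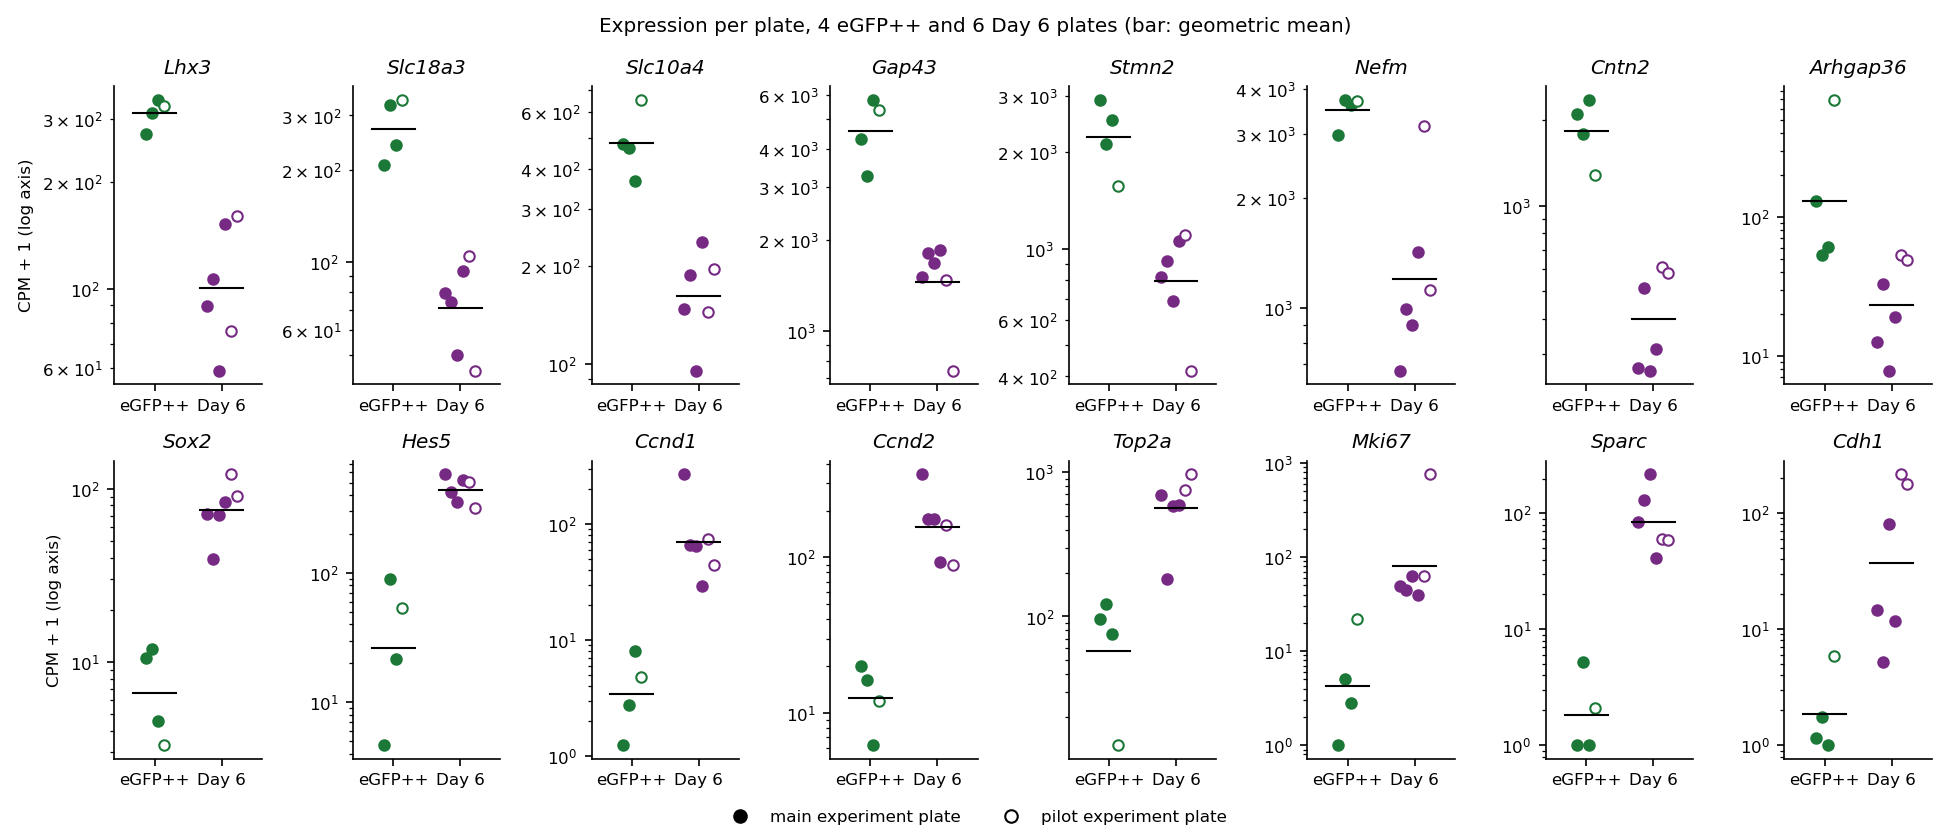
CPM + 1 on a log axis for single genes on each of the 4 eGFP++ plates (left of each panel) and 6 untagged Day 6 plates (right), with main plates filled, pilot plates open and bars at the geometric mean. Lhx3 lies between 271.9 and 340.2 CPM on eGFP++ plates, above all untagged plates, and Sparc and Ccnd1 lie below all untagged plates.

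Among the transcription factors that define motor neurons, Lhx3 and Nr2f2 rose. Lhx3 (GRCm38, chr2:26200212-26208289, minus strand), the LIM homeodomain partner of Isl1, was at 271.9, 312.6 and 340.2 CPM on eGFP++ main plates 1 to 3 and 325.2 CPM on the pilot plate, against a lowest, median and highest of 57.9, 97.1 and 159.8 CPM on the untagged plates. All 4 eGFP++ plates were thus above all 6 untagged plates, with a log2 change of 1.57 ± 0.31 (SE) and an adjusted p of 0.0404 in edgeR. Nr2f2, a nuclear receptor also known as COUP-TFII, was at 335.4, 264.6, 242.7 and 498.8 CPM in eGFP++, against 82.5, 122.1 and 143.2 CPM in untagged cells (log2 change 1.51, adjusted p 0.0307). Lhx3 did not pass in 10 of the 19 alternatives, where its log2 change stayed between 1.06 and 1.72.

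Isl1 and Mnx1 did not pass, although their plates did not overlap either. Isl1, a LIM homeodomain factor needed for motor neuron formation, was at 410.3, 394.6, 396.5 and 673 CPM in eGFP++, against 25.02, 143.1 and 253.2 CPM in untagged cells (adjusted p 0.111). Mnx1, also known as Hb9 and a marker of somatic motor neurons, was at 31.7, 42.9, 53.97 and 21.6 CPM, against 5.27, 9.07 and 16.6 CPM (adjusted p 0.111). Isl2 had an adjusted p of 0.248. Over the 33 motor neuron transcription factors tested, 2 rose and none fell, with a median log2 change of 0.44, 22 members higher and 11 lower. Their summed level was 2971 to 4472 CPM per eGFP++ plate and 1612 to 2665 CPM per untagged plate.

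Of the cholinergic genes, Slc18a3 and Slc10a4 rose. Slc18a3 (GRCm38, chr14:32462438-32464850, minus strand), the vesicular acetylcholine transporter, was at 206.6, 322.3, 239.5 and 337.04 CPM in eGFP++, against 43.4, 75.7 and 103.7 CPM in untagged cells. The eGFP++ plates were all above the untagged ones, with a log2 change of 1.92 ± 0.31 and an adjusted p of 0.0206 in edgeR. Slc10a4, a vesicle protein of cholinergic and aminergic neurons, was at 475.4, 461.8, 365.6 and 654 CPM, against 94.4, 167.4 and 236.99 CPM (log2 change 1.55, adjusted p 0.0307). These were the 2 rises among the 16 tested members of the cholinergic list, whose median log2 change was 0.53 and in which none fell. Chat, the enzyme that makes acetylcholine, did not pass in the plate sums (log2 change 1.22 ± 0.74, adjusted p 0.490). Slc18a3 lies inside the Chat locus, and the sources used here do not say whether reads were counted by strand.

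Th, the rate-limiting enzyme of catecholamine synthesis, was detected in most eGFP++ cells although it missed the threshold as a summed level. It was at 595, 332.3, 403.04 and 330.5 CPM in eGFP++, against 37.4, 148.1 and 241.5 CPM in untagged cells (log2 change 1.53, adjusted p 0.0549). No eGFP++ plate overlapped an untagged one. Of the 9 tested visceral and branchial motor genes, to which Th was assigned, none passed, and 7 had a negative log2 change (median -4.63). Of the 9, 5 had under 3 reads in at least 1 eGFP++ experiment sum.

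The gene list with the most rises was that of the growth cone and the axonal cytoskeleton. Gap43 (GRCm38, chr16:42248442-42340651, minus strand), a membrane protein of growing axon tips, was at 4297, 3263, 5811 and 5359 CPM in eGFP++, against 741, 1594 and 1852 CPM in untagged cells. Its log2 change was 1.64 ± 0.25 with an adjusted p of 0.0158 in edgeR, and the lowest eGFP++ plate was above the highest untagged plate. Stmn2, a microtubule regulator of growth cones, was at 2919, 2127, 2519 and 1570 CPM, against 416.3, 866 and 1101 CPM (log2 change 1.41, adjusted p 0.0354). Crmp1, a collapsin response mediator of axon guidance, was at 716, 799, 797 and 1033 CPM, against 271.1, 324.6 and 421.1 CPM (log2 change 1.33, adjusted p 0.0206). Nefm, the middle neurofilament subunit, was at 2980, 3735, 3602 and 3703 CPM, against 672, 1054 and 3166 CPM (log2 change 1.53, adjusted p 0.0462). Here 1 untagged plate lay above eGFP++ main plate 1, so the groups overlapped, and Nefm missed the threshold in 12 of 19 alternatives. With Rtn1 and Nefl, 6 of 41 tested members rose and none fell. Their median log2 change was 0.81, with 37 members higher and 4 lower. The list summed to 29708 to 34410 CPM per eGFP++ plate and 9129 to 20345 CPM per untagged plate.

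Among genes of axon guidance, adhesion and neuronal RNA processing, Cntn2, Slit2 and Celf3 rose. Cntn2 (GRCm38, chr1:132509427-132543256, minus strand), the axonal adhesion molecule TAG-1, was at 2105, 1793, 2365 and 1279 CPM in eGFP++, against 261.7, 412.02 and 610 CPM in untagged cells. Its log2 change of 2.25 ± 0.30 (adjusted p 0.00589, edgeR) passed whichever single plate was left out, but not in the sums per experiment (adjusted p 0.553, edgeR). Slit2, a secreted guidance cue made by motor neurons and by the floor plate, was at 1278, 1219, 722 and 1326 CPM, against 112.2, 311.8 and 579 CPM (log2 change 1.83, adjusted p 0.0481). It missed the threshold in 13 of the 19 alternatives. Of the 13 genes of the floor plate list, which also holds Slit2, 5 had no read in any eGFP++ cell, Shh among them. In untagged cells, which were more in number and had more reads, 2 of the 13 had no read. The share of all genes without a read was not taken, so nothing is read from this difference. Of the 9 tested members, 6 had under 3 reads in at least 1 eGFP++ experiment sum. The cell source of Slit2 was not tested. Cntn2 and Slit2 were the 2 rises of 40 tested guidance and adhesion genes, whose median log2 change was 0.74. Celf3, a neuronal splicing regulator, was at 270.4, 344.6, 350.2 and 362.5 CPM, against 28.01, 99.7 and 127.1 CPM (log2 change 1.86, adjusted p 0.0354), and it was the only rise of 19 tested RNA-binding genes (median 0.69). Elavl4 and Elavl2, neuronal RNA stabilisers, missed the threshold with adjusted p-values of 0.0544 and 0.0549. None of the 31 tested synaptic vesicle and granule genes passed, with 25 members higher and a median of 0.93, and none of the 26 tested ion channel genes passed.

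Several of the largest rises were outside the lists on motor neurons and axons. Arhgap36, a protein that restrains protein kinase A and acts on Hedgehog signalling, was at 128.7, 52.5, 59.8 and 697 CPM in eGFP++, against 6.84, 24.8 and 51.99 CPM in untagged cells. The pilot eGFP++ plate was far above the rest, and the log2 change of 2.72 ± 0.46 had an adjusted p of 0.0230 in edgeR. Map3k9, a mixed lineage kinase, was at 130.1, 150.2, 208.3 and 246.9 CPM, against 27.3, 42.97 and 58.97 CPM (log2 change 2.09, adjusted p 0.0106). Cdk5r1, the p35 activator of the neuronal kinase Cdk5, was at 272.7, 217.1, 242.7 and 624 CPM, against 69.5, 103.9 and 146.2 CPM (log2 change 1.59, adjusted p 0.0370). Each of the last pair was above all untagged plates on all 4 eGFP++ plates, but Cdk5r1 missed the threshold in 13 of the 19 alternatives. Pfkp, the platelet form of phosphofructokinase, was at 65.1, 51.02, 51.7 and 225.9 CPM, against 15.96, 20.9 and 31.4 CPM (log2 change 1.99, adjusted p 0.0404), and the other 20 tested glycolysis genes did not pass. Pfkp missed the threshold whichever of the 10 plates was left out. Add2, the beta subunit of adducin, was at 58.8, 84.8, 98.9 and 334.7 CPM, against 22.5, 30.5 and 61.1 CPM (log2 change 1.86, adjusted p 0.0416). Ndufa4, a subunit of the respiratory chain, was at 1449, 1323, 1577 and 618 CPM, against 245.01, 344.2 and 633 CPM (log2 change 1.49, adjusted p 0.0206). For Add2 and Ndufa4 1 plate of each group overlapped, and Add2 missed the threshold in 14 of the 19 alternatives.

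**Figure D2:**
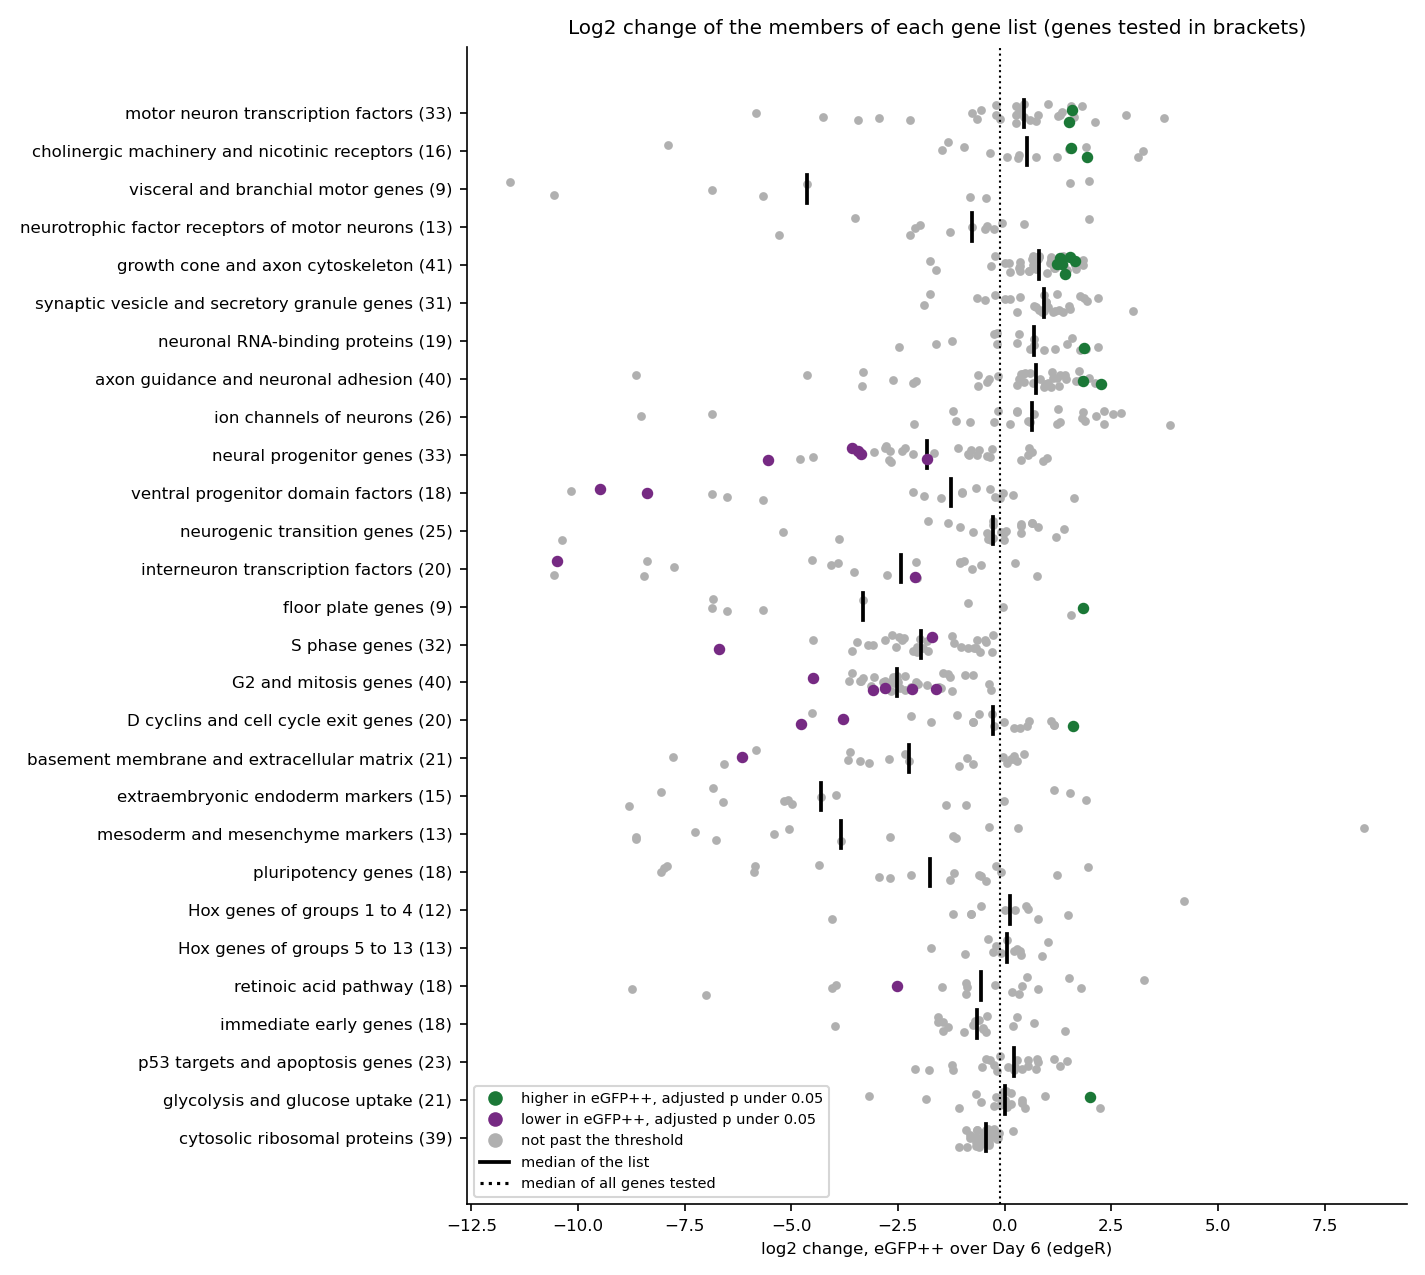
Log2 change (eGFP++ over untagged Day 6, edgeR) of each tested member of the gene lists, 1 row per list with the number of genes tested in brackets, and a dotted line at the median of all genes tested. All 40 G2 and mitosis genes and all 32 S phase genes lie below 0, and 37 of 41 growth cone genes lie above 0.

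Of the neural progenitor genes, Sox2, Hes5, Mdk, Id1 and Sox21 fell. Sox2, the factor that keeps neural progenitors undifferentiated, was at 9.53, 10.8, 3.56 and 2.30 CPM in eGFP++, against 38.05, 76.7 and 120.2 CPM in untagged cells (log2 change -3.57, adjusted p 0.0206 in edgeR). Hes5, a Notch target that represses neurogenesis, was at 3.65, 88.5, 20.4 and 52.3 CPM, against 318.2, 464.9 and 578 CPM (log2 change -3.45, adjusted p 0.0354). For both genes the highest eGFP++ plate was below the lowest untagged plate. Mdk, the growth factor midkine, was at 715, 742, 501.7 and 312.8 CPM, against 1670, 1776 and 2843 CPM (log2 change -1.82, adjusted p 0.0206). With Id1 and Sox21, 5 of 33 tested progenitor genes fell and none rose, with 27 members lower and a median of -1.82. The list summed to 3602 to 4015 CPM per eGFP++ plate and 6616 to 9061 CPM per untagged plate.

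Sfrp2, a secreted Wnt modulator of progenitors, was at 9.13, 20.7, 6.65 and 1.64 CPM in eGFP++, against 71.3, 164.6 and 273.2 CPM in untagged cells. Its log2 change of -4.36 ± 0.48 and that of Cdca7, a Myc-responsive cell division gene (-3.89 ± 0.45), had the smallest adjusted p-values of all genes, 0.00321 each in edgeR. Other falls outside the lists were Fgfbp3, a carrier of fibroblast growth factors (-4.62), Tgm2, a transglutaminase (-5.40), Zfp36l1, which destabilises messenger RNA (-3.38), and Cdh1, E-cadherin (-6.01, with overlapping plates). Genes of intermediate stages did not pass. Olig2 had an adjusted p of 0.351 and Neurog2 of 0.217, and none of the 25 neurogenic transition genes passed (median -0.26).

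Of factors of neighbouring lineages, Foxn4, which specifies V2 interneuron progenitors, had 1 read in the main and 0 reads in the pilot eGFP++ cells, against 580 and 2305 reads in untagged main and pilot cells. It was at least 195.8-fold lower in the pilot eGFP++ sum, with 0 reads set to a floor of 3 reads per sum (adjusted p 0.0307 in edgeR). Gli1, a direct target of Hedgehog signalling, had 0 main and 2 pilot reads in eGFP++ cells, against means of 8.92 and 12.2 CPM in untagged main and pilot plates, and was at least 157.7-fold lower in the main sum (adjusted p 0.0307). Gata3, a factor of V2b interneurons, had 0 main and 1 pilot read in eGFP++ cells, against means of 54.01 CPM on untagged main plates and 3.12 CPM on untagged pilot plates (adjusted p 0.0451). The reads of Foxn4 and Gata3 were uneven over untagged cells: all pilot reads of Gata3 came from 1 cell, and 1 cell held 80.6% of the 2290 Foxn4 reads on untagged pilot plate 2. Prdm8, a transcriptional repressor of developing neurons, was at 134.8, 188.8, 176.9 and 68.4 CPM in eGFP++, against 389.2, 558.6 and 1162 CPM in untagged cells (log2 change -2.09, adjusted p 0.0316). Gata3 and Prdm8 were the falls among 20 tested interneuron factors, of which 18 were lower (median -2.42). Of these 20, 12 had under 3 reads in at least 1 eGFP++ experiment sum and so passed the filter on low counts mainly through untagged plates, and nothing is read from their signs or their median. The interneuron list summed to 79.3 to 307.5 CPM per eGFP++ plate and 640 to 1219 CPM per untagged plate. Much of this sum was Prdm8, so the contrast of the sums is no result apart from that call. The LIM homeodomain gene Lhx1 overlapped between the groups, with 9.91 to 73.6 CPM on eGFP++ plates and 25.2 to 94.03 CPM on untagged plates. Of the 33 list members, 14, Evx1 among them, had no read in eGFP++ cells, against 5 in untagged cells. The untagged group held more cells and more reads. The share of all genes without a read was not taken, so nothing is read from these counts.

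All tested genes of S phase, G2 and mitosis had negative log2 changes, although few passed one by one. Ccnd1 (GRCm38, chr7:144929931-144939925, minus strand), the D-type cyclin that starts the cycle, was at 0.238, 1.76, 7.11 and 3.80 CPM in eGFP++, against 28.3, 64.5 and 266.7 CPM in untagged cells (log2 change -4.76 ± 0.90, adjusted p 0.0354 in edgeR). Ccnd2, its relative in neural progenitors, was at 19.1, 15.3, 5.22 and 11.02 CPM, against 88.4, 167.3 and 340.8 CPM (log2 change -3.78 ± 0.50, adjusted p 0.00534). Neither gene overlapped between the groups, but Ccnd1 missed the threshold in 9 of the 19 alternatives. Top2a, the topoisomerase of chromosome condensation, was at 95.1, 120.1, 74.2 and 11.8 CPM, against 180.96, 641 and 966 CPM (log2 change -3.09 ± 0.61, adjusted p 0.0416). Mki67, the proliferation marker Ki-67, was at 0, 4.12, 1.84 and 20.9 CPM, against 38.2, 55.1 and 758 CPM (log2 change -4.48, adjusted p 0.0404), and Cdca8, the chromosomal passenger borealin, was at 26.6, 30.05, 17.8 and 18.8 CPM, against 99.6, 165.2 and 218.4 CPM (log2 change -2.81 ± 0.35, adjusted p 0.00517). Again all eGFP++ plates were below all untagged plates. With Cks2 and Hmgn2, 5 of 40 tested G2 and mitosis genes fell, and all 40 had a negative log2 change (median -2.51). Of 32 tested S phase genes, Pcna, the clamp of DNA polymerase, and Ung, which removes uracil from DNA, fell. All 32 had a negative log2 change (median -1.95). Of the 40 and 32 genes, 5 and 4 had under 3 reads in at least 1 eGFP++ experiment sum, so the size of their change is imprecise. The G2 and mitosis list summed to 1056 to 1828 CPM per eGFP++ plate and 2507 to 7045 CPM per untagged plate. Fbxo5, an inhibitor of the anaphase-promoting complex, and Dtl, a ubiquitin ligase adaptor of S phase, fell as well (-5.84 and -4.60).

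The promoters of the 5 called G2 and mitosis genes are shown because genes of this phase often hold the cell cycle homology region (TTTGAA) and CCAAT boxes near their starts. The windows run from 200 bases before to 25 bases after the RefSeq start (GRCm38.p6), 5′ to 3′ on the strand of the gene, with TTTGAA and CCAAT in capitals on either strand, where TTCAAA and ATTGG are their reversed forms. Top2a is chr11:99024165-99024389 (minus strand), Cdca8 chr4:124936893-124937117 (minus), Mki67 chr7:135716355-135716579 (minus), Cks2 chr13:51645032-51645256 (plus) and Hmgn2 chr4:133967967-133968191 (minus). The RefSeq start of Cdca8 lies 2394 bases and that of Hmgn2 659 bases from the GENCODE M21 gene start, so these windows depend on the start chosen, while the other 3 lie within 18 bases of it.
Top2a: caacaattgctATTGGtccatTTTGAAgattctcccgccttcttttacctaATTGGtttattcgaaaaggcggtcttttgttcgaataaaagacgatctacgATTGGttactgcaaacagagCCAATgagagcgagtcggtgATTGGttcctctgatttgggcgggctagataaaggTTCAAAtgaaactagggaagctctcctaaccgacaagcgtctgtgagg
Cdca8: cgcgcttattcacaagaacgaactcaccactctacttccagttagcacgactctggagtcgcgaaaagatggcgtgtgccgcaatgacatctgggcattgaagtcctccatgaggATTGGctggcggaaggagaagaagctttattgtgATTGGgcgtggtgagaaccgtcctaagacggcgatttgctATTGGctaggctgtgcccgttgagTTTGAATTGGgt
Mki67: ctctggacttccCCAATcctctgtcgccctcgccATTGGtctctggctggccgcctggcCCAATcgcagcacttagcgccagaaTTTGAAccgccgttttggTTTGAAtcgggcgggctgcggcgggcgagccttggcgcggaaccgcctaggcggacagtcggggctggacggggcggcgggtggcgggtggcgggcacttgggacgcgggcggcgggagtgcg
Cks2: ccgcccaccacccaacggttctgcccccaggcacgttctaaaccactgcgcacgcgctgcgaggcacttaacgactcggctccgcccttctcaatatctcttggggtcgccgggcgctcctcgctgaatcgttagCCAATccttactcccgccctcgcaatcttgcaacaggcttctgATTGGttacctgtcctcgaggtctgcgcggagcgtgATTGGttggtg
Hmgn2: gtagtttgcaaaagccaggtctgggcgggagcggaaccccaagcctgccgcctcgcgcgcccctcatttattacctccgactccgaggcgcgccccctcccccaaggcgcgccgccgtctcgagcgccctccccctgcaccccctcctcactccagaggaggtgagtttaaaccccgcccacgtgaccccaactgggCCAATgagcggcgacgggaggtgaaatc
TTTGAA stands in 3 of these 5 windows, with no match in Cks2 and Hmgn2, and CCAAT on either strand stands in all 5, and in Cdca8 the last of each overlap. In the full, longer windows of the RefSeq table, a gene counting when any of its windows held the motif, TTTGAA on either strand was present for 27 of the 36 G2 and mitosis genes that have an entry (75%), 3 of 26 S phase genes (11.54%) and 4 of 26 growth cone genes (15.4%). It was present for 20.2% of all 27025 genes of the table and in 13.6% of the 10001 tested genes with an entry. TTTGAA was also present for 24% of motor neuron factors and 26.1% of progenitor genes with an entry. For called genes with an entry the share was 27.3% of falls and 26.7% of rises. CCAAT was present for 29 of the 36 G2 and mitosis genes (80.6%) and for 41.1% of all genes of the table. It was also present for 60% of motor neuron factors, 60.9% of progenitor, 53.85% of S phase and 30.8% of growth cone genes. For called genes with an entry the share was 60.6% of falls and 40% of rises. The E2F-type octamers TTTCCCGC and TTTGGCGC were each present for 5 of 26 S phase genes, for 0 of 36 G2 and mitosis genes, and for 1.24% and 0.585% of all genes of the table. These matches describe letters in a window and no binding.

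Sparc (GRCm38, chr11:55394500-55423183, minus strand), a matrix glycoprotein of basement membranes, was at 0, 4.21, 0 and 1.115 CPM in eGFP++, against 40.5, 71.4 and 216.6 CPM in untagged cells. All eGFP++ plates were below all untagged plates, with a log2 change of -6.16 ± 1.18 and an adjusted p of 0.0359 in edgeR. Sparc missed the threshold in 9 of the 19 alternatives. It was the only call among 21 tested matrix genes (median -2.25, and -1.42 in the main experiment alone). Of the 21, 6 were higher, and 6 had under 3 reads in at least 1 eGFP++ experiment sum. The summed list overlapped between the groups, with 699 CPM on the highest eGFP++ plate and 596 CPM on the lowest untagged plate. Markers of extraembryonic endoderm, which also makes Sparc, were uneven over the plates. The list summed to 13.4 to 141.96 CPM per eGFP++ plate (median 52.7) and 77.2 to 828.9 CPM per untagged plate (median 149.5). The highest value was that of untagged main plate 3. None of 15 tested members passed (10 of them with under 3 reads in an eGFP++ sum), and Sox17 had no read in either group. The part of such cells in the fall of Sparc was not tested. Dhrs3, a retinaldehyde reductase induced by retinoic acid, fell to 21.3, 16.1, 12.6 and 17.6 CPM in eGFP++, against 29.7, 91.1 and 210.7 CPM in untagged cells (log2 change -2.51, adjusted p 0.0354), and it was the only call of 18 tested retinoic acid genes.

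Some groups showed no call in either direction. None of the 39 cytosolic ribosomal protein genes passed, but 38 had a negative log2 change (median -0.44), and their summed level was 67124 to 116309 CPM per eGFP++ plate and 129481 to 151240 CPM per untagged plate, without overlap. Rpl13, a protein of the large ribosomal subunit, was at 2856, 2272, 2516 and 1727 CPM in eGFP++, against 3779, 4200 and 4693 CPM in untagged cells (log2 change -0.88, adjusted p 0.0555 in edgeR). No Hox gene passed among 12 tested of groups 1 to 4 and 13 of groups 5 to 13, with median log2 changes of 0.11 and 0.05, whose signs depended on the scaling and the experiment. Likewise none of 23 p53 and apoptosis genes (median 0.21) and 18 immediate early genes (median -0.64) passed. Of the 18 immediate early genes, 7 had under 3 reads in an eGFP++ sum. None of 18 pluripotency genes passed either (median -1.74, and -0.44 in the main experiment alone), with 9 members under 3 reads in an eGFP++ sum.

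**Figure D3:**
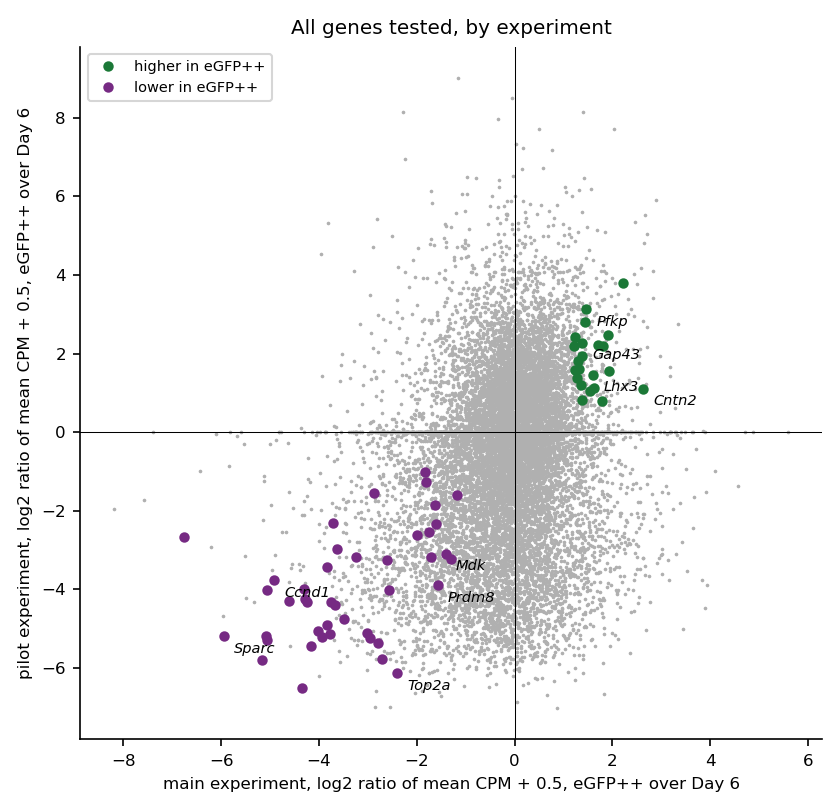
Log2 ratio of mean CPM + 0.5, eGFP++ over untagged Day 6, in the main experiment (x axis) and the pilot experiment (y axis) for all 13419 genes tested, with the called genes marked. The 65 called genes lie in the 2 quadrants of equal direction, the 22 rises at the upper right and the 43 falls at the lower left. The calls were made on these same plates.

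The size of the change differed between experiments for 6.18% of the 13419 genes tested (interaction, adjusted p under 0.05 in edgeR), among them 4 of the 65 called genes. The log2 change in the pilot minus that in the main experiment was -3.78 for Top2a (adjusted p of the interaction 0.0194 in edgeR), -2.34 for Prdm8 (0.0170), -1.69 for Mdk (0.0259) and -1.93 for the peroxiredoxin gene Prdx1 (0.0465). In all 4 the pilot eGFP++ plate was the lowest of the 4 eGFP++ plates. The pilot eGFP++ group is 1 plate, so plate and experiment cannot be told apart there. The log2 ratio of Lhx3 was 1.61 over main plates and 1.46 over pilot plates, and that of Sparc was -5.95 over main and -5.20 over pilot plates.

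The same contrast was read as the share of cells with at least 1 read, after each cell had been thinned to 10000 reads, which left out 1 eGFP++ cell and no untagged cell. Of 33 genes, 17 differed between plates by an exact permutation test within experiments, adjusted over the 33 (smallest possible p 0.00952 before adjustment), 11 higher in eGFP++ with Egfp among them and 6 lower. Lhx3 was detected in 44.5% of eGFP++ and 21.4% of untagged cells, with 30.8% to 59.6% per eGFP++ plate and 15.6% to 26.4% per untagged plate (exact permutation, adjusted p 0.0210). The plates thus stayed apart, and the difference was 17.3 percentage points thinned and 24.3 points at full depth. Slc18a3 was detected in 53.6% of eGFP++ and 20.5% of untagged cells (27.5 points thinned, 45.4 points at full depth). Th was detected in 64.5% of eGFP++ and 26.6% of untagged cells (35.9 points thinned, 37.04 points at full depth). Day 2 cells, which precede neurons, gave a background of 0.282% in main and 0 of 74 pilot cells for Lhx3, a count of 0 that allows up to 4.05%, and 0% in both experiments for Slc18a3 and Th. The Day 2 cells had a median of 183424 reads in the main and 632865 reads in the pilot before thinning, against 139360 to 403866 reads per eGFP++ plate and 128227 to 1058868 reads per untagged plate.

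Gap43 was detected in 89.1% of eGFP++ and 48.9% of untagged cells, and in 7.89% of main and 2.70% of pilot Day 2 cells. The adjusted p was 0.0210 by exact permutation, but 0.0993 without thinning, where the difference was 22.8 points in place of 34.3 points. Stmn2 was detected in 83.5% of eGFP++ and 44.9% of untagged cells (36.01 points thinned, 30.2 points at full depth). It passed thinned but not at full depth (adjusted p 0.110, exact permutation). It was detected in 42.5% of main and 10.8% of pilot Day 2 cells. Isl1 was detected in 48.9% of eGFP++ and 22.4% of untagged cells (20.2 points thinned, 29.5 points at full depth), with overlapping plates. Mnx1 was detected in 16.8% and 4.47% in the same order and did not pass (adjusted p 0.157, exact permutation). Chat was detected in 12.1% of eGFP++ and 5.18% of untagged cells, and Isl2 in 15.6% and 5.18%. Both passed thinned (adjusted p 0.0370 and 0.0210, exact permutation) but not at full depth (adjusted p 0.164 and 0.0786). Nefm and Celf3, which rose in the plate sums, did not pass thinned (adjusted p 0.0898 and 0.0827, exact permutation). At full depth both passed (adjusted p 0.0349 each).

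The 6 genes with lower shares were Hes5, Sox2, Olig2, Mki67, Top2a and the matrix gene Sparc. Hes5 was detected in 3.43% of eGFP++ and 33.9% of untagged cells, a difference of -34.2 points thinned and -26.2 points at full depth. Sox2 was detected in 3.43% of eGFP++ and 22.4% of untagged cells (-23.0 points thinned, -20.9 points at full depth), Olig2 in 7.48% and 17.6% (-9.23 and -12.4 points) and Sparc in 0.623% and 13.6% (-14.4 and -18.7 points). Mki67 was detected in 0.935% of eGFP++ and 12.5% of untagged cells and Top2a in 8.72% and 28.7%. Each of these 6 shares had an adjusted p of 0.0210 by exact permutation of plates. Ccnd1 was detected in 1.87% of eGFP++ and 9.65% of untagged cells and did not pass (adjusted p 0.0698, exact permutation), but passed at full depth (adjusted p 0.0349). At full depth Hes5 and Sparc still passed, and Sox2, Olig2, Mki67 and Top2a did not. Vim, an intermediate filament of progenitors and young neurons, was detected in 72.3% of eGFP++ and 78.8% of untagged cells and did not pass.

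**Figure D4:**
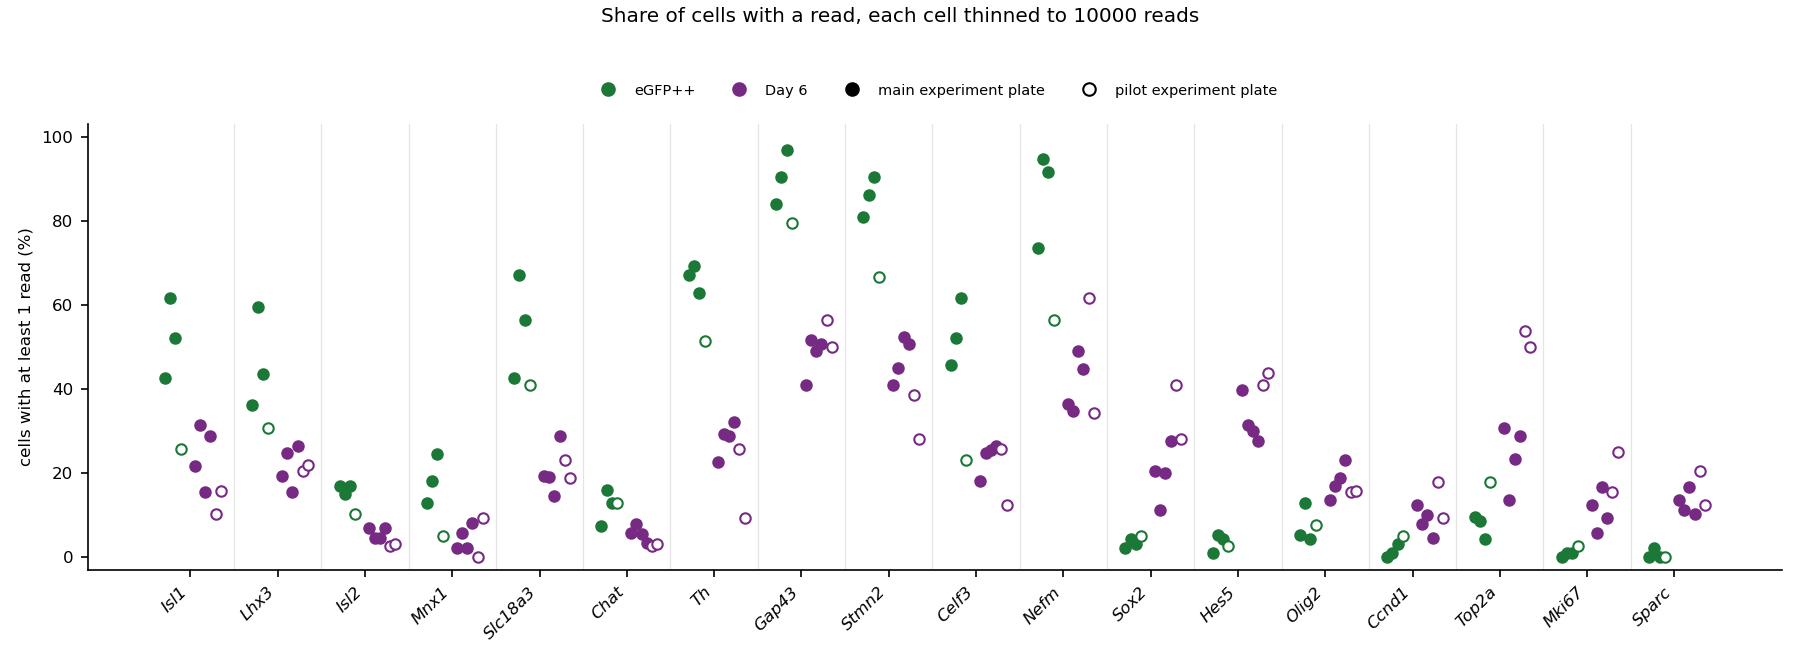
Share of cells with at least 1 read per plate (y axis, %) for single genes (x axis), each cell thinned to 10000 reads, for 4 eGFP++ and 6 untagged Day 6 plates. Gap43 was found in 79.5% to 96.8% of cells per eGFP++ plate and 40.9% to 56.4% per untagged plate, and Hes5 in 1.06% to 5.32% and 27.6% to 43.8%.

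Genes read together in a cell gave the makeup of the sort. At least 1 of Mnx1, Isl1, Isl2 and Lhx3 was found in 76.9% of eGFP++ cells and 36% of untagged cells. Isl1 and Lhx3 were found together in 25.2% of eGFP++ and 10.1% of untagged cells, and Chat or Slc18a3 in 59.2% and 23.1%. At least 1 of Sox2, Hes5 and Ccnd1 was found in 7.79% of eGFP++ cells and 48.5% of untagged cells. Mki67 or Top2a was found in 8.72% of eGFP++ and 31.1% of untagged cells. Of all cells of a group, 2.18% in eGFP++ and 24.2% in untagged had Mki67 or Top2a without a read of the 4 motor neuron factors. A further 6.54% and 6.82% had Mki67 or Top2a together with such a factor. These are not shares among the cells with or without a factor, whose numbers differed between the groups. In eGFP++ cells the reads of Mki67 or Top2a were mostly of Top2a, found in 8.72% of cells, against 0.935% for Mki67. Detection of 1 read or more does not tell a cycling cell from a stray read, and this was not tested. For scale, Egfp was detected in 8.45% of main and 0% of pilot Day 2 cells. These shares pool plates of unequal size and describe the cells, without a test.

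Within a plate, growth cone genes took a median of 2.77% to 3.26% of the reads of a cell on eGFP++ plates and 0.545% to 1.21% on untagged plates. The 90th percentile of cells was 4.58% to 5.76% on eGFP++ plates and 2.40% to 4.83% on untagged plates, so the upper cells of 1 untagged plate, the first pilot plate, reached the range of eGFP++. For G2 and mitosis genes the medians were 0.04% to 0.09% of reads on eGFP++ plates and 0.1% to 0.205% on untagged plates, and the 90th percentiles were 0.167% to 0.276% on eGFP++ plates and 0.402% to 1.53% on untagged plates.

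**Figure D5:**
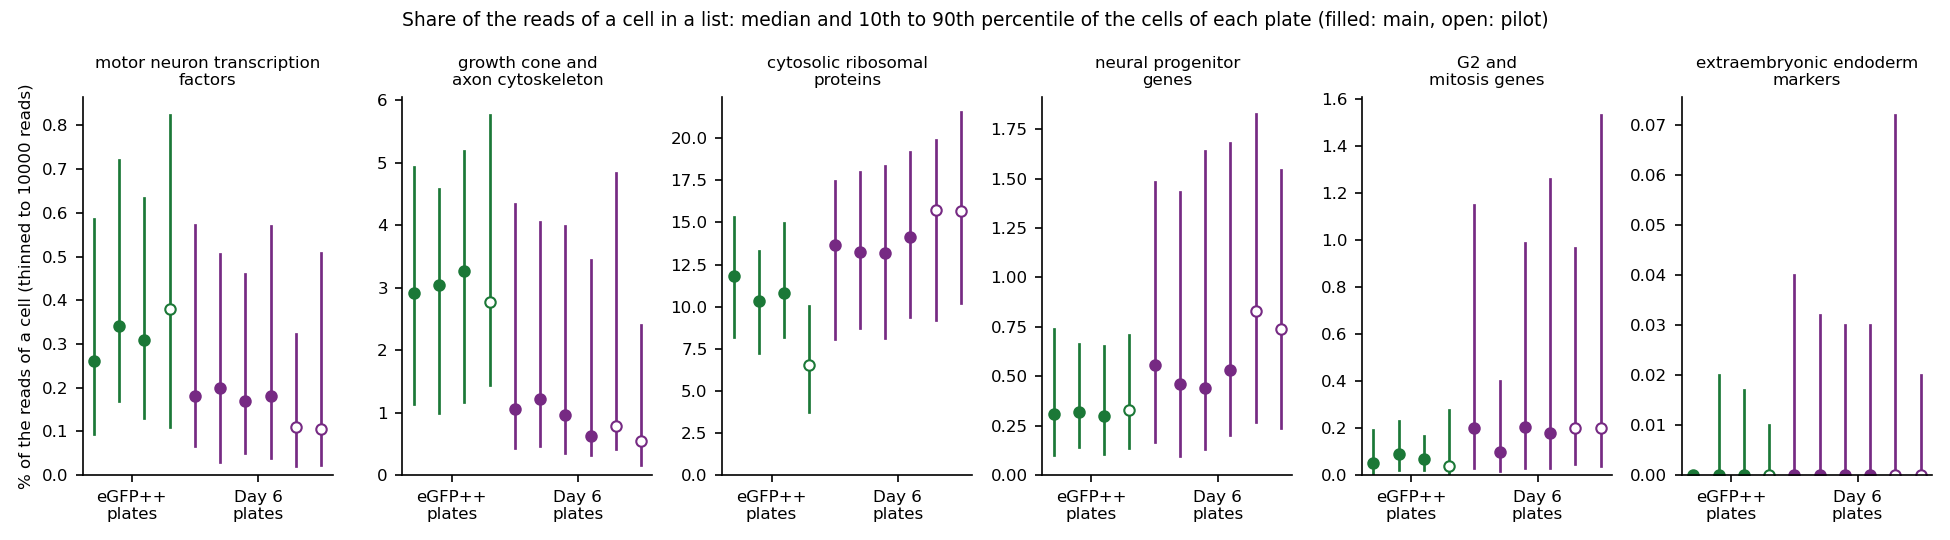
Share of the reads of a cell that fell in a gene list (y axis, %, each cell thinned to 10000 reads), as the median (point) and the 10th to 90th percentile (line) of the cells of each plate, eGFP++ plates left of the untagged Day 6 plates, main filled and pilot open. Growth cone medians are 2.77% to 3.26% on eGFP++ plates and 0.545% to 1.21% on untagged plates.

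Values by day place 2 of the rises, Lhx3 and Gap43, and 3 of the falls in the course of the differentiation. Median CPM of Lhx3 in the main experiment was 0.235, 0.379, 1.74, 41.3 and 100.3 on Days 2 to 6 and 338.2 in eGFP++ cells. The values by day are scaled to the gene reads of each plate alone, without TMM factors. Gap43 was at 34.2, 23.4, 3.38, 521.01 and 1842 CPM on Days 2 to 6 and 3870 CPM in eGFP++ cells. For Hes5 the values were 1.05, 60.7, 185.2, 745 and 485.9 CPM and 20.3 CPM in eGFP++ cells, and for Ccnd1 they were 90.96, 61.2, 76.5, 69.4 and 68.1 CPM and 1.90 CPM. Sparc was at 179.1, 90.5, 154.1, 81.9 and 109.7 CPM on Days 2 to 6 and at 0 CPM in the median eGFP++ plate. Ccnd1 and Sparc were thus lower in eGFP++ than on any day of the main experiment, while Hes5 was below Days 3 to 6 and above Day 2. On the eGFP+ plate, 19 of the 22 rises were below the mean of the untagged plates. Of the 43 falls, 42 were above the mean of the eGFP++ plates there. These genes were called for their difference on the eGFP++ plates, and the same share over all tested genes was not taken. Nothing is therefore read from these counts on 1 plate.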

How the data were processed

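The deposited tables hold raw counts of reads per gene and well, 1 table per plate, with no molecular identifiers, so intervals and floors cover counting error only. Per the submitters' processing notes, TopHat2 2.1.1, HTSeq 0.6.1 and the mm10 build were used, but these notes do not tie a tool to a step. Columns carry no cell names and were assigned to the group of their plate, and a further table, whose 40 columns could be tied to no sample, was left out. On the 10 plates compared, summary lines took 31.5% of reads and spike-ins 10.2%, and both were left out, as were 27 gene names that a spreadsheet had changed to dates. No doublet caller was run on these cells, which were sorted singly, and no 2 kept cells had equal counts.

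Counts of cells with at least 500 genes were summed per plate, and the sums were tested with edgeR 4.0.16 under R 4.3.3 (low counts removed by filterByExpr, TMM, quasi-likelihood, group plus experiment, 7 residual degrees of freedom, prior count 0.125, two-sided tests, Benjamini-Hochberg adjustment over all 13419 genes). The labels name a main and a pilot experiment in both groups, and the series gives 2 biological replicates. Main-minus-pilot differences of the 2 groups correlated at 0.0840 over genes. Alternatives are listed with their values in the closing section, and DESeq2 1.42.0 was among them. Shares of cells used Python 3.11.15 and scipy 1.17.1. Scripts were tested on simulated data. Coordinates came from GENCODE M21 and promoters from RefSeq (GRCm38.p6).

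Members, gene lists and tests were chosen with earlier results of these data known, so a pattern that those results already held has no independent support here. Named genes are the 15 largest rises and 15 largest falls among called genes with one direction in both experiments and at least 20 CPM in the higher group, the 4 markers, the 33 genes of the share test and, of each of the 30 lists, the members with the smallest adjusted p-values. The 30 lists beside the marker panel were written by hand. Of lists not described in the report, neurotrophic factor receptors (13 tested, median log2 change -0.77), ventral progenitor factors (18 tested, 2 fell, median -1.25), D cyclins and exit genes (20 tested, 1 rose, 2 fell, median -0.27), mesoderm (13 tested, median -3.83), endothelial and blood (4 tested, median -4.45) and neural crest and glial genes (6 tested, median -0.06) had no other call. With under 3 reads in an eGFP++ sum were 5 of the 13 neurotrophic, 9 of the 18 ventral, 8 of the 13 mesoderm and all 4 endothelial and blood genes, which passed the filter mainly through untagged plates, so nothing is read from these medians.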

Additional observations from a re-analysis of the deposited data

Results flagged for a closer look

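A single plate lay apart from the rest of its group in 12 of 160 values examined, by the gap of the highest or lowest plate relative to the range of its group at the 95% level, a rule by which chance alone marks about 1 in 20 groups. In eGFP++ cells these were Nefm on main plate 1 (2980 CPM), Slit2 on main plate 3 (722 CPM), Pfkp on pilot plate 1 (225.9 CPM), Ung on pilot plate 1 (2.76 CPM), the summed ion channel genes on pilot plate 1 (925 CPM) and the summed endothelial and blood markers on main plate 2 (9.77 CPM). In untagged Day 6 cells these were Celf3 (28.01 CPM), Gap43 (741 CPM) and Mki67 (758 CPM) on pilot plate 2, Top2a on main plate 2 (180.96 CPM), and the summed extraembryonic endoderm (828.9 CPM) and endothelial and blood markers (60.1 CPM) on main plate 3. Nefm was low on its plate, Slit2, Celf3, Gap43 and Top2a were low as well, and the other values were high.

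The change in eGFP++ against untagged Day 6 cells differed between the pilot and the main experiment for 3 named genes with a call by the interaction test of edgeR, which 6.18% of the 13419 genes passed. The pilot eGFP++ group is 1 plate, so plate and experiment cannot be told apart in this test. The log2 change in the pilot minus that in the main experiment was -1.69 for Mdk, -2.34 for Prdm8 and -3.78 for Top2a.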

How the results depend on the processing

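With the main settings 65 of 13419 genes were called (0.484% of those tested, 0.164% higher and 0.32% lower in eGFP++), and 1885 had an unadjusted p under 0.05. Shares are given below as a percent of the genes tested, whose number differed between settings. Sums per experiment called 0.159% of 13231 genes (0.00756% higher, 0.151% lower), a spread estimated from all plates of the series called 1.57% of 15013 (1.45% lower), the main experiment alone 0.842% of 12108 (0.38% higher), DESeq2 7.68% of 12613 (2.62% higher, 5.06% lower), no low-count filter 1.02% of 16113 (0.422% higher, 0.602% lower), and cells thinned to 10000 reads 1.16% of 9151 (0.35% higher, 0.809% lower). Without the replicate block, 51 genes were called (0.425% of 11986), 48 of them shared with the fit with the block. The experiment names pair no cultures in the labels, and with 2 experiments the block is not shown to pair samples. Leaving out 1 plate gave 0.0757% to 0.538% of genes called, 0.0226% to 0.235% higher and 0.053% to 0.303% lower, and 10 to 71 calls in all. DESeq2 size factors and a minimum of 1000 genes per cell kept each share within 1.5 times. The cause of these shifts was not tested.

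No named gene with a call reversed. Of 33 shares of cells, 17 passed thinned and 9 at full depth, and all 17 kept their sign. The median log2 change of visceral and branchial motor genes was -4.63, but -0.05 in the main experiment alone and 1.54 in thinned cells, and that of floor plate genes was -3.33, but -0.63 and -0.53. With sums under 3 reads set to 3 reads, an alternative chosen after seeing the data, the medians were 0.88 for growth cone, -2.15 for progenitor and -3.01 for G2 and mitosis genes. In thinned cells the endothelial and blood list had no tested member and so no median. The 4 and 6 plates come from 2 experiments. On untagged plates, Foxn4 was read in 1 to 5 cells, Gli1 in 2 to 10 cells and Gata3 in 0 to 13 cells per plate.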
